A study of Mus musculus with 12 samples.

Results

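The genes described here are 10 transcription factors and feedback regulators of the ATF4-CHOP stress pathway: *Atf4*, *Atf3*, *Atf5*, *Ddit3*, *Cebpb*, *Trib3*, *Ddit4*, *Chac1*, *Ppp1r15a* and *Nupr1*. They were taken by name from a table of 24453 genes, and all 10 had enough counts to be tested among 14026 genes. The study sequenced RNA of 4 mouse embryonic fibroblast (MEF) lines, each in 3 biological replicates, which gives 12 libraries. The parent line is TM6, which has the strain C57BL/6J, the genotype *Pnpt1* neo-flox/neo-flox and immortalization by SV40 large T antigen. *Pnpt1* encodes PNPase, an exoribonuclease of mitochondria. The rho0 line was made from TM6 with ditercalinium dichloride dihydrochloride at 750 ng/mL for 3 weeks and grown from a single cell colony, and it is labelled as mtDNA deficient. PKO-1 and PKO-6 are single cell clones of TM6 after Adenoviral-Cre, which excises exon 2 of *Pnpt1*, and the study describes them as having lost mtDNA too. All 4 lines descend from cells with the floxed alleles, which in the 2 clones are the deleted ones, and carry the T antigen, and all were grown with uridine at 50 µg/mL. Each derived line is 1 clone, so the replicates of a line show the spread between cultures of that clone.

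The integrated stress response begins with kinases that phosphorylate the translation factor eIF2. General translation then slows, while the mRNA of *Atf4* is translated better because of short reading frames in its leader. ATF4 is a basic leucine zipper (bZIP) factor that turns on amino acid supply genes and further bZIP factors, among them *Ddit3*, which encodes CHOP, *Atf3* and *Atf5*. ATF4 and CHOP together turn on *Trib3*, *Chac1* and *Ppp1r15a*. Some of these close loops: GADD34, the product of *Ppp1r15a*, directs a phosphatase to eIF2, and the pseudokinase TRIB3 binds and restrains ATF4 and CHOP. In cells with defective mitochondria this pathway is a well known route by which the nucleus responds. Much of the control of ATF4 is at translation and protein stability, which RNA-seq does not measure.

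The promoter stretches of 6 of these genes are shown because they hold a motif of 8 or 7 letters that the pathway's factors or their bZIP relatives are known to bind. The windows searched, from RefSeq on GRCm38.p6, run from 250 bases before to 50 bases after each start, and all 10 genes had one (11 windows, since *Atf5* has 2 starts). The C/EBP-ATF composite element TGATGNAA, searched on both strands, was found in 4 of the 11 windows, against 3.97% of all 32851 windows. Its matches lay in *Atf3*, *Trib3*, *Chac1* and *Nupr1*, here in capitals as read along the gene's strand, where each is the reverse complement of the letters searched:

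*Atf3* (chr1:191183411-191183468, minus strand): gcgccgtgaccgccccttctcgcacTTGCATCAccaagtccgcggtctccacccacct

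*Trib3* (chr2:152344036-152344071, minus strand): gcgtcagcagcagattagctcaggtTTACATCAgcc

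*Chac1* (chr2:119351024-119351081, plus strand): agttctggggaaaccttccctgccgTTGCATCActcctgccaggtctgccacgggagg

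*Nupr1* (chr7:126625548-126625605, minus strand): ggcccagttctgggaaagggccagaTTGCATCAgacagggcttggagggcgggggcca

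The cAMP response element TGACGTCA was in the window of *Ppp1r15a* and in 1.79% of all windows, and the AP-1 site TGANTCA in that of *Ddit3* and in 7.81%, with the matches in capitals:

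*Ppp1r15a* (chr7:45526248-45526305, minus strand): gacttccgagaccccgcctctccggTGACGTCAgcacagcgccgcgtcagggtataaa

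*Ddit3* (chr10:127290543-127290582, plus strand): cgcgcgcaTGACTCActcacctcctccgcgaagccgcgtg

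The ER stress response element, CCAAT and CCACG separated by 9 bases, was in 0 of the 11 windows and in 0.119% of all. A match describes letters in a window and is no measure of binding.

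Total counts were 47164860 to 67991378 per library, of which 12.2% to 19.6% fell on the ribosomal RNA precursor *Rn45s*. *Pnpt1*, the targeted gene, had 2832 to 3319.5 normalized counts in TM6, 5051 to 5509.5 in rho0, 1191 to 1276 in PKO-1 and 1720.4 to 2214 in PKO-6. To normalize, each count was divided by the effective size of its library over the mean of these sizes, and *Pnpt1* is counted over all its exons, so RNA without exon 2 is still counted. The 12 fibroblast markers checked summed to 0.675% to 1.17% of counts, while each list of epithelial, leukocyte, endothelial, neural and muscle markers summed to at most 842 normalized counts in any library. *Lum* was at 0 in every rho0 library and *Thy1* in every PKO-6 library. Below 10 normalized counts in every library were 1 of the 12 markers in TM6, 1 in PKO-1, 2 in rho0 and 2 in PKO-6. The fibroblast profile was thus not complete in any of the lines. The part of these marker differences in the results below was not tested.

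*Atf4* was the most abundant of the 10 genes in every line when levels were compared per length, in TPM (a share of all transcripts, scaled to the same total in each library). In TM6 it had 331 ± 4.95 TPM (SD, n = 3), followed by *Cebpb* at 85.6 ± 5.58 and *Nupr1* at 85.3 ± 2.57, and *Atf3* was lowest at 8.18 ± 0.120. *Trib3* stood at rank 9 of 10 in TM6 with 15.02 ± 1.23 TPM, at rank 2 in rho0 with 201 ± 6.01 TPM and at rank 3 in PKO-6 with 159 ± 5.75 TPM. *Ddit3* moved from rank 4 in TM6, at 45.3 ± 2.60 TPM, to rank 3 in rho0 at 199 ± 2.25 TPM and rank 2 in PKO-6 at 194 ± 20.4 TPM. In PKO-1 *Ddit3* was at rank 6 with 47.2 ± 3.22 TPM, a level close to that in TM6, while *Trib3* was at rank 7 with 41.0 ± 0.973 TPM and *Atf5* at rank 2 with 76.1 ± 2.56 TPM.

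Against TM6, all 10 genes were higher in rho0, 9 were higher in PKO-6, and 4 were higher and 1 lower in PKO-1. A gene was called when the adjusted p of edgeR's quasi-likelihood test was below 0.01 and the absolute log2 fold change was above 0.5. By this rule 42.1% of all tested genes were called in rho0 against TM6 (20.7% higher), 41.3% in PKO-6 (21.9% higher) and 34.3% in PKO-1 (16.4% higher). The median log2 fold change of the 10 genes was 1.58 in rho0, 1.64 in PKO-6 and 0.23 in PKO-1, where the medians of all genes were 0.02, 0.01 and 0.00086. The libraries of a line and of TM6 did not overlap for all 10 genes in rho0, all 10 in PKO-6 and 7 in PKO-1, and this was so for 72.8%, 71.9% and 71.8% of all tested genes. In these bulk samples, fewer cells that express a gene and less RNA per cell cannot be told apart. The rho0 count fell to 4 when PKO-1 and PKO-6 were pooled as 1 group, since the difference between the clones then entered the spread.

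**Figure D1:**
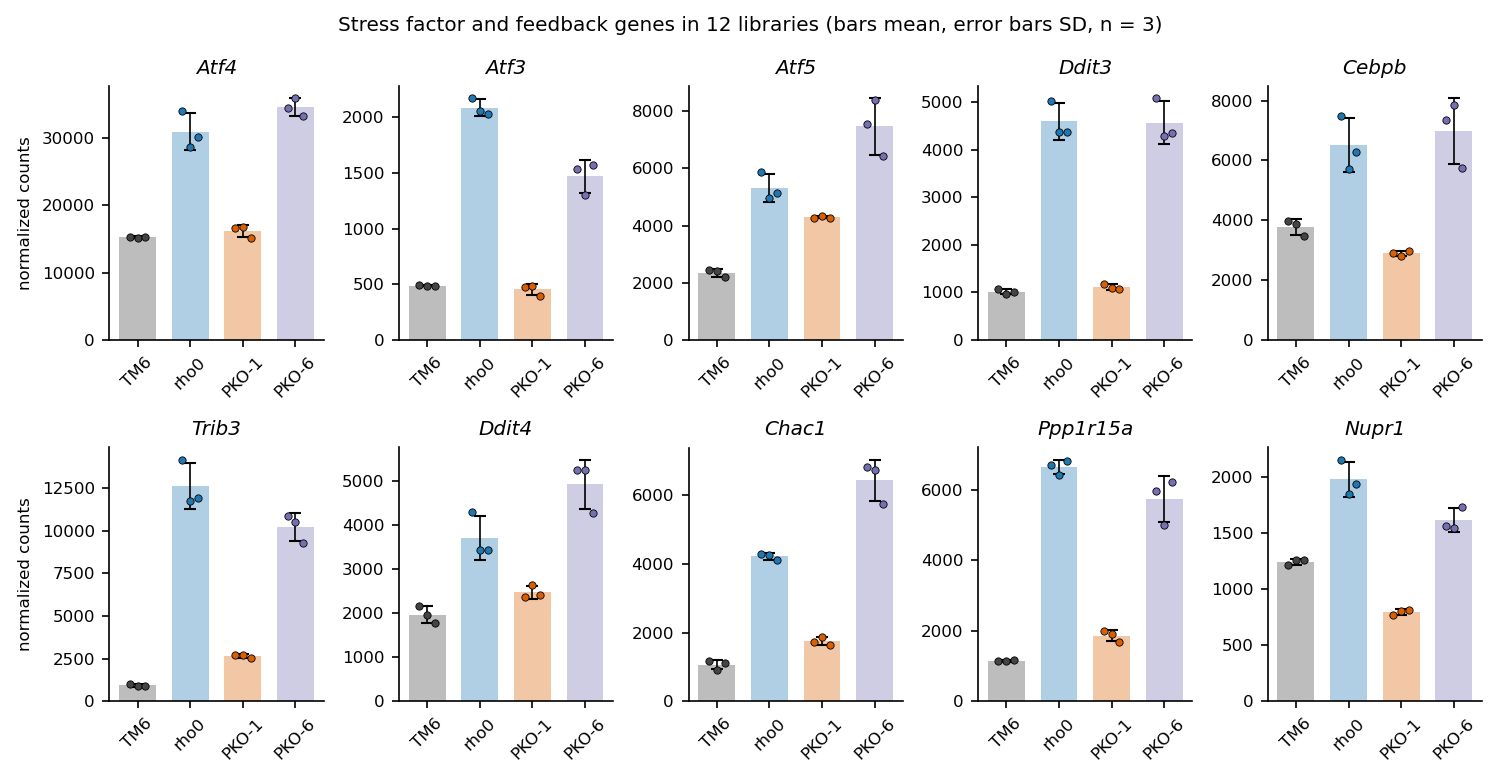
Normalized counts of the 10 genes (vertical axis, linear and starting at 0) in TM6, rho0, PKO-1 and PKO-6, where points are the 3 libraries of a line, bars the mean and error bars the SD. For *Ddit3* the PKO-1 points, at 1062 to 1184, lie beside the TM6 points, at 963 to 1068, while all rho0 and PKO-6 points are at 4284 or more.

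The first factors in the pathway, *Atf4* and *Ddit3*, were both higher in rho0 and PKO-6 and were not called in PKO-1. *Atf4* (chr15:80255184-80257545, mm10, plus strand) had 15342, 15164 and 15316 normalized counts in the TM6 libraries, 33964.5, 28647 and 30197 in rho0, 16674, 16723 and 15202 in PKO-1, and 34437, 35944 and 33327 in PKO-6. All rho0 and PKO-6 libraries thus lay above all TM6 and PKO-1 libraries, and the latter 2 lines overlapped. The log2 fold change against TM6 was 1.02 in rho0 (SE 0.0674, edgeR adjusted p = 1.17e-08), 1.18 in PKO-6 (SE 0.0676, edgeR adjusted p = 2.3e-09) and 0.08 in PKO-1 (SE 0.0669, edgeR adjusted p = 0.283). The median log2 fold change of all 560 tested genes of chromosome 15 was -0.38 in rho0 against TM6, and with chromosome medians removed the change of *Atf4* in rho0 was 1.40. The chromosome 15 median in PKO-1 was -0.23, and with medians removed *Atf4* there was 0.32, still below the fold for a call. An approximate F test, of the shifted change over the unshifted SE, gave that value an adjusted p = 0.00101.

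*Ddit3* (chr10:127290793-127296288, mm10, plus strand), which encodes CHOP, had 1068, 963 and 1016 normalized counts in the TM6 libraries, 5041, 4386 and 4375 in rho0, 1184, 1093 and 1062 in PKO-1, and 5093, 4284 and 4349 in PKO-6. The 12 libraries fell into a low pair of lines, TM6 and PKO-1, and a high pair, rho0 and PKO-6, and within each pair the libraries overlapped. It rose 4.53-fold in rho0 and 4.50-fold in PKO-6, a log2 fold change of 2.18 (SE 0.0817, edgeR adjusted p = 4.13e-11) and 2.17 (SE 0.0816, edgeR adjusted p = 2.96e-11). In PKO-1 the log2 fold change was 0.13 (SE 0.0823, edgeR adjusted p = 0.179). With chromosome medians removed it was 0.30 (approximate F test adjusted p = 0.00628), also below the fold for a call.

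The files also split *Ddit3* between transcripts of 4 exons and of 3 exons, which share start, end and coding sequence and differ by an exon of the leader. The 3-exon transcript held 11.1% to 15.3% of the gene's estimated counts in TM6, 1.76% to 2.41% in rho0, 3.73% to 7.43% in PKO-1 and 2.08% to 3.65% in PKO-6. Its counts were 112 to 189 in TM6 and 69.8 to 112 in rho0, while those of the 4-exon transcript were 867 to 1046 in TM6 and 3824 to 5092 in rho0. All TM6 libraries had a higher share of the 3-exon transcript than the 9 others, PKO-1 included, although the total level of *Ddit3* in PKO-1 was not called. The shares are the authors' estimates, were not tested and rest on reads that reach a single short exon.

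*Atf3* (chr1:191170297-191183333, mm10, minus strand), a bZIP factor induced by many kinds of stress, had 489, 481 and 482 normalized counts in the TM6 libraries, 2173, 2055 and 2028 in rho0, 475, 486 and 397 in PKO-1, and 1538, 1301 and 1568 in PKO-6. All PKO-6 libraries lay between the highest TM6 and the lowest rho0 library, and those of PKO-1 overlapped TM6. The log2 fold change was 2.11 in rho0 (SE 0.0859, edgeR adjusted p = 9.3e-11), 1.60 in PKO-6 (SE 0.0854, edgeR adjusted p = 1.07e-09) and -0.10 in PKO-1 (SE 0.0890, edgeR adjusted p = 0.349). *Atf3* also answers to serum and handling as immediate early genes do. Of 13 such genes, 4 were called higher and 4 lower in rho0, against 6 higher and 2 lower in each of PKO-1 and PKO-6. Of all tested genes, 20.7%, 16.4% and 21.9% were called higher and 21.4%, 17.9% and 19.4% lower in rho0, PKO-1 and PKO-6. In rho0, *Klf2* (1.86), *Fosb* (1.61), *Ier3* (0.79) and *Nr4a1* (0.71) were higher and *Egr1* (-1.85), *Fos* (-1.58), *Egr3* (-2.36) and *Egr2* (-3.39) lower on the log2 scale, of which *Ier3*, *Fos*, *Egr2* and *Egr3* were named after their values were seen. The part of handling in the levels of *Atf3* was not tested.

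*Atf5* (chr7:44812256-44816658, mm10, minus strand), a bZIP factor known for its part in the mitochondrial unfolded protein response, was called in all 3 derived lines. It had 2449, 2408 and 2182 normalized counts in the TM6 libraries, 5866, 4960 and 5129.8 in rho0, 4272, 4324 and 4271 in PKO-1, and 7565, 8410.2 and 6433 in PKO-6. The lines did not overlap, with TM6 lowest and PKO-6 highest. The log2 fold change was 0.87 in PKO-1 (SE 0.0898, edgeR adjusted p = 1.42e-06), 1.18 in rho0 (SE 0.0900, edgeR adjusted p = 4.96e-08) and 1.67 in PKO-6 (SE 0.0907, edgeR adjusted p = 1.29e-09). Of its 2 listed transcripts, the one with the upstream start, which RefSeq annotates as non-coding, held 96.3% to 97.2% of the counts in TM6 and at least 97.9% in each library of the other lines. The counts of *Atf5* thus rest mostly on the transcript listed as non-coding, and the split between overlapping transcripts is the authors' estimate.

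*Cebpb* (chr2:167688915-167690432, mm10, plus strand), a single exon gene for a bZIP partner of ATF4, had 3974, 3861 and 3477 normalized counts in the TM6 libraries, 7497, 5729 and 6289 in rho0, 2906, 2803 and 2965 in PKO-1, and 7349, 7862 and 5754 in PKO-6. It was 1.73-fold higher in rho0 (log2 0.79, SE 0.111, edgeR adjusted p = 2.32e-05) and 1.85-fold higher in PKO-6 (log2 0.89, SE 0.111, edgeR adjusted p = 6.86e-06). All PKO-1 libraries lay below all TM6 libraries, and the log2 fold change of -0.38 (SE 0.112, edgeR adjusted p = 0.00833) was smaller than the fold that a call needs.

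**Figure D2:**
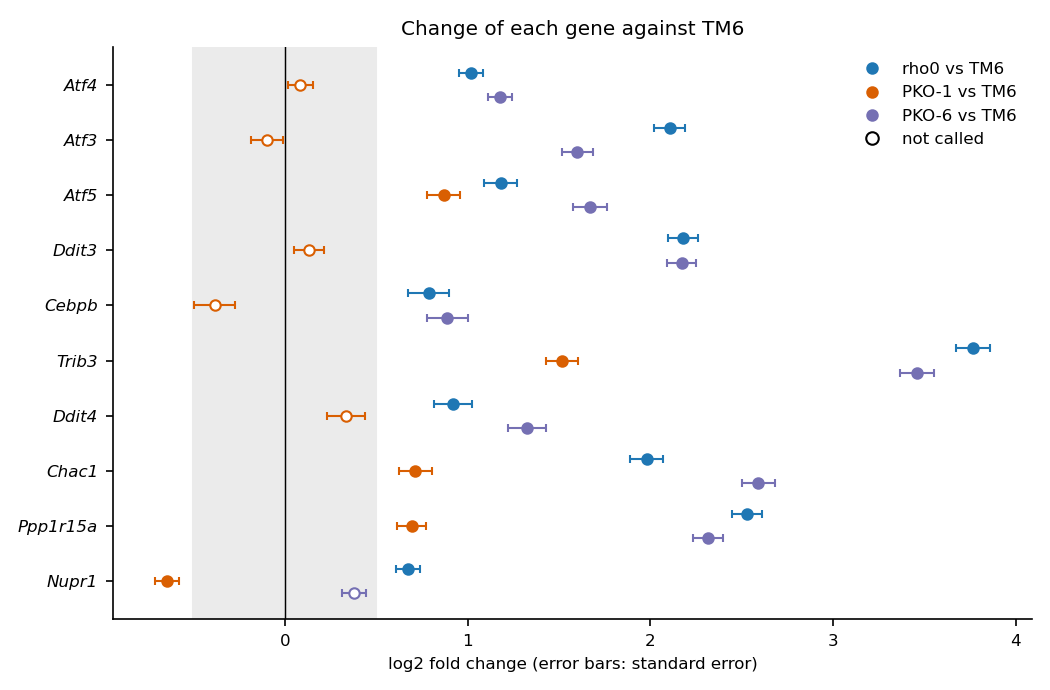
Log2 fold change against TM6 (horizontal axis) with its standard error for each gene in rho0, PKO-1 and PKO-6, where filled points were called, open points were not, and the grey band spans changes below the fold needed for a call. *Trib3* lies farthest right in all 3 lines, at 3.77, 1.52 and 3.46, and *Nupr1* in PKO-1 is the filled point left of 0, at -0.64.

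Of the targets and feedback genes, *Trib3* (chr2:152337425-152344060, mm10, minus strand) changed most. It had 1006, 872 and 898 normalized counts in the TM6 libraries, 14169.9, 11747 and 11929 in rho0, 2732, 2708 and 2509 in PKO-1, and 10866, 10497.5 and 9261 in PKO-6. The 4 lines did not overlap, and PKO-1 stood between TM6 and the other derived lines. *Trib3* was 13.6-fold higher than in TM6 in rho0 (log2 3.77, SE 0.0935, edgeR adjusted p = 9.5e-13), 11.02-fold in PKO-6 (log2 3.46, SE 0.0924, edgeR adjusted p = 1.15e-12) and 2.86-fold in PKO-1 (log2 1.52, SE 0.0885, edgeR adjusted p = 4.42e-09).

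*Chac1* (chr2:119351242-119354327, mm10, plus strand), which encodes a glutathione-degrading enzyme, had 1176, 921 and 1101 normalized counts in the TM6 libraries, 4283, 4245 and 4108 in rho0, 1728, 1879 and 1643 in PKO-1, and 6815, 6737 and 5737 in PKO-6. It was the only one of the 10 genes for which every step in the order TM6, PKO-1, rho0, PKO-6 was called, with log2 steps of 0.71, 1.27 and 0.61. The change against TM6 was 0.71 in PKO-1 (SE 0.0900, edgeR adjusted p = 9.71e-06), 1.98 in rho0 (SE 0.0903, edgeR adjusted p = 2.76e-10) and 2.59 in PKO-6 (SE 0.0915, edgeR adjusted p = 1.59e-11).

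*Ppp1r15a* (chr7:45522917-45526268, mm10, minus strand), which encodes the eIF2 phosphatase subunit GADD34, had 1138, 1135 and 1179.6 normalized counts in the TM6 libraries, 6712, 6423 and 6823 in rho0, 1994, 1901 and 1692 in PKO-1, and 5965, 4993 and 6234 in PKO-6. No libraries of different lines overlapped, and PKO-1 was the nearest to TM6. The gene was 5.78-fold higher in rho0 (log2 2.53, SE 0.0828, edgeR adjusted p = 1.13e-11), 4.98-fold in PKO-6 (log2 2.32, SE 0.0823, edgeR adjusted p = 1.7e-11) and 1.62-fold in PKO-1 (log2 0.69, SE 0.0814, edgeR adjusted p = 4.86e-06). Its constitutive relative *Ppp1r15b*, added to the named genes after its values were seen, had log2 fold changes of 0.03, 0.33 and -0.04 in rho0, PKO-6 and PKO-1 and was called in none of them.

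*Ddit4* (chr10:59949675-59951770, mm10, minus strand), whose product REDD1 restrains mTORC1, had 2162, 1962 and 1772 normalized counts in the TM6 libraries, 4299, 3429 and 3428 in rho0, 2379.6, 2647 and 2411 in PKO-1, and 5266, 5245 and 4286 in PKO-6. The log2 fold change was 0.92 in rho0 (SE 0.105, edgeR adjusted p = 2.97e-06) and 1.33 in PKO-6 (SE 0.105, edgeR adjusted p = 6.71e-08). All PKO-1 libraries lay above all TM6 libraries, but the change of 0.33 (SE 0.105, edgeR adjusted p = 0.0129) was not called. With chromosome medians removed it was 0.50 and was called.

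*Nupr1* (chr7:126623246-126625470, mm10, minus strand), which encodes a small stress-induced nuclear protein, was the gene of the 10 that was called in opposite directions. It had 1213, 1256 and 1259 normalized counts in the TM6 libraries, 2153, 1849 and 1936 in rho0, 765, 808 and 809.8 in PKO-1, and 1561, 1544 and 1735 in PKO-6. PKO-1 was below TM6 and rho0 above it, with no overlap among the 4 lines. The log2 fold change was 0.67 in rho0 (SE 0.0658, edgeR adjusted p = 6.32e-07), -0.64 in PKO-1 (SE 0.0679, edgeR adjusted p = 1.7e-06) and 0.38 in PKO-6 (SE 0.0657, edgeR adjusted p = 1.58e-04), where the fold was too small for a call.

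The 2 PNPase knockout clones differed in all 10 genes, with PKO-1 below PKO-6 each time, where 29.1% of all tested genes were called and 17.6% were lower. The log2 fold changes of PKO-1 against PKO-6 ranged from -2.04 to -0.80, with a median of -1.45, and the median of all genes was -0.01. *Ddit3* differed most, at -2.04 (SE 0.0815, edgeR adjusted p = 1.22e-10), followed by *Trib3* at -1.95 (SE 0.0859) and *Chac1* at -1.88 (SE 0.0887). The smallest difference was that of *Atf5*, at -0.80 (SE 0.0885, edgeR adjusted p = 3.25e-06). No library of PKO-1 overlapped PKO-6 for any of these genes, as was so for 66.5% of all genes. Both clones come from the same parent and treatment, and with 1 clone on each side, a difference between clones and a difference in culture or extraction cannot be told apart.

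Set against rho0, PKO-1 was called lower for 9 of the 10 genes, where 32.7% of all tested genes were called and 17.6% were lower. No PKO-1 library overlapped rho0 for any of the 10, as for 69.5% of all genes. The log2 fold changes were between -2.25 for *Trib3* (SE 0.0867, edgeR adjusted p = 1.08e-10) and -0.59 for *Ddit4* (SE 0.104, edgeR adjusted p = 2.53e-04) among those called. *Ddit4* was not called without rho0 replicate 1, at -0.48. *Atf5* had -0.31 (SE 0.0884, edgeR adjusted p = 0.00724) and did not pass the fold.

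Between PKO-6 and rho0, 2 of the 10 genes were called, beside 21.5% of all tested genes (13.3% higher and 8.16% lower in PKO-6). The libraries did not overlap for 6 of the 10 genes and for 56.7% of all. *Chac1* was higher in PKO-6 by 0.61 on the log2 scale (SE 0.0850, edgeR adjusted p = 4.48e-05), and *Atf3* was lower, at -0.51 (SE 0.0805, edgeR adjusted p = 1.43e-04). *Ddit3* had a log2 difference of -0.01 (SE 0.0764, edgeR adjusted p = 0.941), *Cebpb* 0.10 (SE 0.110, edgeR adjusted p = 0.447) and *Atf4* 0.16 (SE 0.0667, edgeR adjusted p = 0.0568). A p above the threshold does not show that these levels were alike. The call of *Atf3* was lost without rho0 replicate 1 (-0.49) or PKO-6 replicate 2 (-0.44), and *Atf5* and *Ddit4* were called as higher in PKO-6 without rho0 replicate 1 (0.55 and 0.50) or PKO-6 replicate 3 (0.59 and 0.50).

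**Figure D3:**
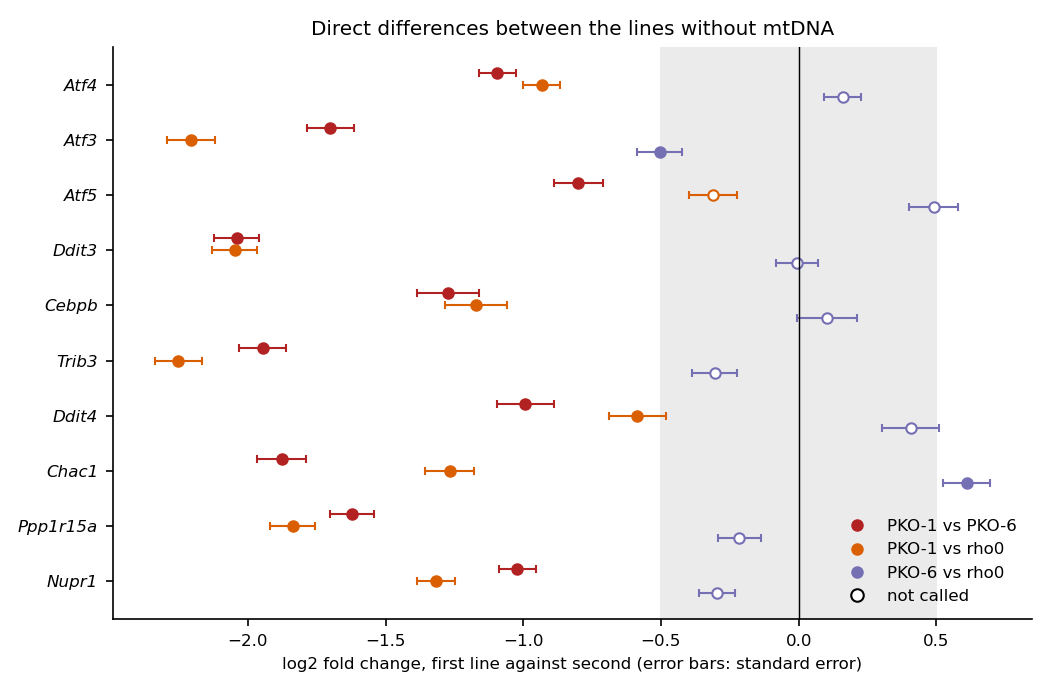
Log2 fold change of the first line against the second (horizontal axis) with its standard error for PKO-1 against PKO-6, PKO-1 against rho0 and PKO-6 against rho0, where filled points were called and the grey band spans changes below the fold needed for a call. All PKO-1 points lie left of 0, while the points of PKO-6 against rho0 lie between -0.51 and 0.61.

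With both clones pooled, as the study compared them, 4 of the 10 genes were called against TM6, all higher, beside 25.7% of all tested genes (13.5% higher and 12.2% lower). The 6 PKO libraries did not overlap TM6 for 5 of the 10 genes and for 47.7% of all. The called genes were *Trib3* (log2 2.80, SE 0.567, edgeR adjusted p = 0.0017), *Chac1* (1.94, SE 0.522, edgeR adjusted p = 0.0093), *Ppp1r15a* (1.72, SE 0.449, edgeR adjusted p = 0.00784) and *Atf5* (1.33, SE 0.234, edgeR adjusted p = 6.74e-04). *Ddit3* had a pooled log2 fold change of 1.49 (SE 0.546, edgeR adjusted p = 0.0414) and *Atf4* one of 0.73 (SE 0.293, edgeR adjusted p = 0.0573). For both, the mean of the 6 libraries lies in a gap: the *Ddit3* mean of 2844 normalized counts is far from any PKO-1 library, at most 1184, and any PKO-6 library, at least 4284. The count of 4 was 1 without TM6 replicate 2 or 3, and 2 without TM6 replicate 1, any rho0 library or any PKO-6 library, and *Atf5* was called in each of these fits. With a replicate block it was also 2, since *Chac1* (edgeR adjusted p = 0.0225) and *Ppp1r15a* (edgeR adjusted p = 0.0196) were not called.

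Against rho0, 0 of the 10 genes were called with the clones pooled by edgeR's quasi-likelihood test, beside 10.7% of all tested genes (6.33% higher and 4.36% lower). The libraries did not overlap for 4 of the 10 genes and for 32% of all. At an unadjusted p under 0.05 there were 2, *Atf3* and *Nupr1*, and DESeq2's Wald test called 0. The biological coefficient of variation was 0.248 with the clones pooled and 0.0837 with 4 lines.

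The kinases and translation factors upstream of *Atf4* were called in both directions, with median log2 fold changes of -0.10 in rho0, -0.17 in PKO-1 and -0.24 in PKO-6. Of 21 such genes tested, 3 were called higher and 5 lower in rho0, 3 and 3 in PKO-1, and 1 and 7 in PKO-6. The shares called in either direction, 8, 6 and 8 of 21, were near those of all tested genes (42.1%, 34.3% and 41.3%). Among all tested genes, 20.7% were called higher and 21.4% lower in rho0, 16.4% and 17.9% in PKO-1, and 21.9% and 19.4% in PKO-6. The genes called higher in rho0 were *Eif2b3* (0.77), *Eif2s1* (0.61) and *0610009O20Rik* (0.51), the table's symbol for *Dele1*, named after their values were seen. *Eif2ak3*, the eIF2 kinase of the endoplasmic reticulum (ER) known as PERK, changed by -1.04 on the log2 scale in rho0 (SE 0.06) and by -0.83 in PKO-6 (SE 0.06), and by -0.34 in PKO-1 (SE 0.06), which was not called. *Eif2b1*, a subunit of the exchange factor that recharges eIF2, had -1.01 in rho0 and -0.97 in PKO-6, both called, and -0.24 in PKO-1, not called. *Dnajc3*, an inhibitor of eIF2 kinases, had -1.01, -0.98 and -0.48 in the same order and was likewise called in rho0 and PKO-6. *Eif2s3x*, the X-linked eIF2 gamma subunit, was lower in all 3 lines, with log2 fold changes of -1.16 in PKO-1, -0.89 in rho0 and -0.63 in PKO-6. The median of all 459 tested genes of the X chromosome was -0.74 in PKO-1, -0.75 in rho0 and -0.87 in PKO-6. The part of this chromosome-wide shift in the change of *Eif2s3x* was not tested.

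The amino acid and secreted factor genes known as ATF4 targets were called upwards in all 3 derived lines. Of 32 tested, 27 were called higher in rho0, 28 in PKO-6 and 16 in PKO-1, where *Atf4* itself was not called. Of all tested genes, 20.7%, 21.9% and 16.4% were called higher in these lines. The median log2 fold change of the list was 1.53 in rho0, 1.31 in PKO-6 and 0.54 in PKO-1. Those of all genes were 0.02, 0.01 and 0.00086. *Cth*, the enzyme that makes cysteine from cystathionine, had 664 ± 29.6 normalized counts (SD, n = 3) in TM6, 11772 ± 865 in rho0, 3133 ± 328 in PKO-1 and 10373 ± 336 in PKO-6. *Gdf15*, a secreted stress cytokine, rose by 4.04, 2.21 and 3.34 on the log2 scale in rho0, PKO-1 and PKO-6, and *Vldlr*, a lipoprotein receptor, by 5.01, 3.96 and 4.33. Against PKO-6, 23 of the 32 were called lower in PKO-1 and 1 higher, beside 17.6% and 11.5% of all tested genes. The gene called higher was *Slc7a3*, a transporter of cationic amino acids, whose 908 normalized counts in PKO-1 exceeded 302 in PKO-6 and 323 in rho0.

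**Figure D4:**
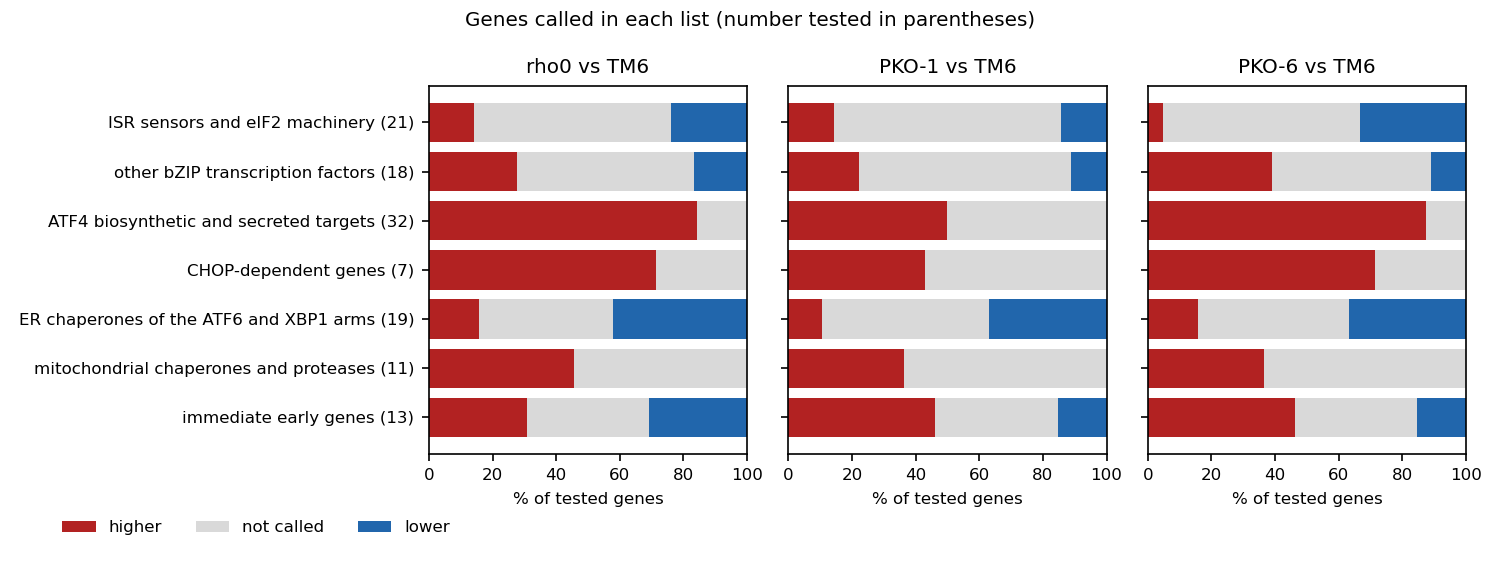
Share of the tested genes of each list (horizontal axis, percent) that were called higher (red), called lower (blue) or not called (grey) in rho0, PKO-1 and PKO-6 against TM6. The ATF4 target list has the longest red bars, with 27, 16 and 28 of 32 genes, while the ER chaperone list has 8, 7 and 7 of 19 genes called lower. Of all tested genes, 20.7%, 16.4% and 21.9% were called higher and 21.4%, 17.9% and 19.4% lower in these lines.

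Genes known to depend on CHOP were compared with *Ddit3* itself. Of 7 tested, 5 were called higher in rho0, 5 in PKO-6 and 3 in PKO-1, beside 20.7%, 21.9% and 16.4% of all tested genes. The list's median log2 fold change was 0.90 in rho0, 0.68 in PKO-6 and 0.20 in PKO-1. Those of all genes were 0.02, 0.01 and 0.00086. *Car6*, a secreted carbonic anhydrase with a CHOP-driven transcript, had a mean of 2.51 normalized counts in TM6, 2059 in rho0, 124 in PKO-1 and 2799 in PKO-6. *Tenm4*, a transmembrane protein also known as Doc4 for its dependence on CHOP, had 32.3 in TM6, 1870.1 in rho0, 292 in PKO-1 and 1361 in PKO-6. All PKO-1 libraries were above all TM6 libraries for both genes, although *Ddit3* RNA was not called there, and for *Tenm4* the log2 fold change was 3.17 (SE 0.125). *Car6* rested on a few counts in TM6, so no fold is given against that line. *Ero1l*, an ER oxidase, rose by 2.31, 1.33 and 1.49 on the log2 scale in rho0, PKO-1 and PKO-6. *Vill*, a villin-like gene, and *Bbc3*, which encodes the death factor PUMA, were called in rho0 (0.90 and 0.72) and PKO-6 (0.58 and 0.68) and had 0.20 and 0.13 in PKO-1. The death genes *Tnfrsf10b* (-0.21, -0.26 and 0.20) and *Bcl2l11* (0.26, 0.12 and 0.48) were called in none of rho0, PKO-1 and PKO-6.

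**Figure D5:**
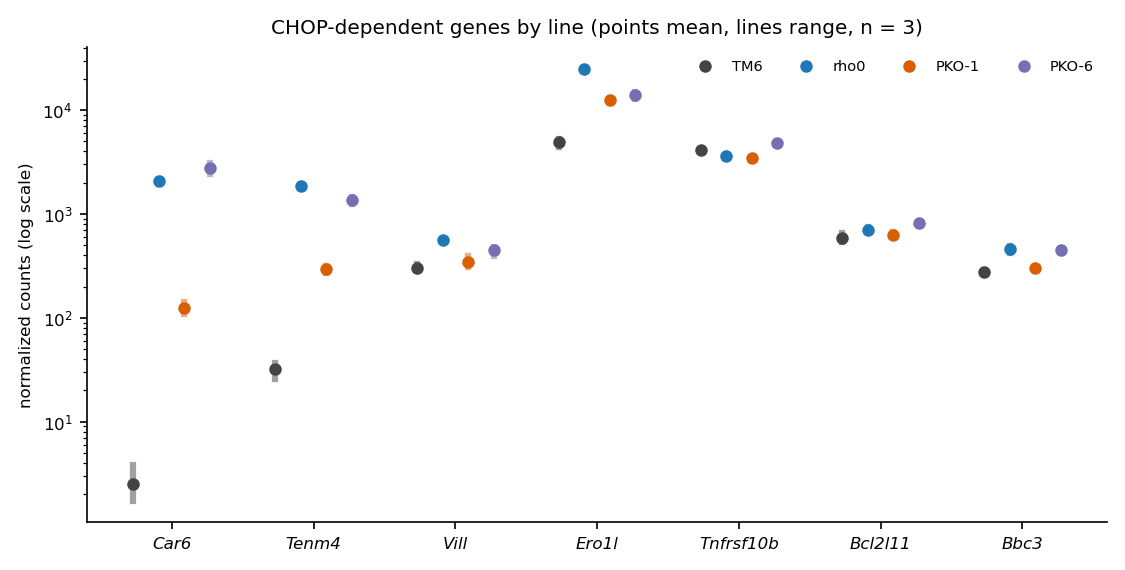
Normalized counts (vertical axis, log scale) of the 7 CHOP-dependent genes in TM6, rho0, PKO-1 and PKO-6, where points are means and vertical lines the range of 3 libraries. *Car6* spans from a mean of 2.51 in TM6 to 2799 in PKO-6, while the *Bcl2l11* and *Tnfrsf10b* points of the 4 lines lie close together.

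Genes of the ATF6 and XBP1 arms of the ER stress response, most of them chaperones, were called in both directions. Of 19 tested, 3 were called higher and 8 lower in rho0, 2 and 7 in PKO-1, and 3 and 7 in PKO-6, where 21.4%, 17.9% and 19.4% of all tested genes were called lower. The 3 genes called higher in rho0 were the sensor *Atf6* and 2 genes of ER degradation, *Sel1l* and *Herpud1* (0.59, named after its value was seen), while the 8 called lower were chaperones, folding enzymes and secreted ER proteins. *Calr*, the calcium-binding chaperone calreticulin, changed by -1.35 in rho0 (SE 0.07), -0.50 in PKO-1 (SE 0.07) and -1.25 in PKO-6 (SE 0.07). *Creld2*, a secreted ER protein, fell in all 3 lines, with -1.53, -0.57 and -0.69 in rho0, PKO-1 and PKO-6. *Sel1l*, of the ER degradation machinery, was called higher in rho0 (1.16) and PKO-6 (1.03) and had 0.46 in PKO-1. *Atf6* was higher in all 3 lines, by 1.23, 0.99 and 1.29 on the log2 scale in rho0, PKO-1 and PKO-6.

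Other bZIP factors were called in both directions: of 18 tested, 5 were higher and 3 lower in rho0, 4 and 2 in PKO-1, and 7 and 2 in PKO-6. In either direction these are 8, 6 and 9 of 18 genes, near the 42.1%, 34.3% and 41.3% of all tested genes. Among all tested genes, 20.7% were called higher and 21.4% lower in rho0, 16.4% and 17.9% in PKO-1, and 21.9% and 19.4% in PKO-6. *Cebpg*, a partner of ATF4 in autoregulation, rose by 1.47 in rho0 (SE 0.06), 0.61 in PKO-1 (SE 0.06) and 0.97 in PKO-6 (SE 0.06). *Fosl1*, an AP-1 factor, rose by 1.29, 1.33 and 1.76 in rho0, PKO-1 and PKO-6, and *Jdp2*, a repressor that pairs with Jun, by 1.29, 0.74 and 1.42. *Maf*, a large bZIP factor, fell from 483 normalized counts in TM6 to 12.9 in rho0, 28.2 in PKO-1 and 44.1 in PKO-6.

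Genes with patterns most like 3 of the 10 were sought by the largest difference between their log2 fold changes in the 3 derived lines against TM6. For *Ddit3* the nearest were *Cpeb1* (largest difference 0.16), *Tcf24* (0.23) and *Tmem191c* (0.29), and only 2 of 14026 tested genes came within 0.25. *Cpeb1* had 148 normalized counts in TM6, 637 in rho0, 168 in PKO-1 and 596 in PKO-6. In the same order, *Tcf24* had 29.4, 137, 37.7 and 140, and *Tmem191c* 6.51, 36.8, 8.29 and 31.4. The fold changes of *Tmem191c* thus rested on a few counts in TM6 and PKO-1. For *Trib3* they were *Wnt9a* (0.16), *Kctd4* (0.19) and *Phyhd1* (0.31), again with 2 genes within 0.25. *Wnt9a* had 154, 2243, 434 and 1898 normalized counts in TM6, rho0, PKO-1 and PKO-6. The smaller changes of *Atf4* were met more often, with 42 genes within 0.25, the nearest being *Tmem81* (0.07), *Klf11* (0.12) and *Gm1673* (0.13).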

How the data were processed

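RNA-seq of 12 libraries (4 lines, 3 biological replicates each) was used. The authors removed ribosomal RNA, prepared stranded libraries as technical duplicates whose reads were merged, and estimated counts with RSEM 1.2.25 and bowtie2 against RefSeq transcripts of mm10. The deposited values are expected (estimated) counts, not normalized, per gene and per transcript, and deposited TPM values per transcript were summed to genes. Gene counts were rounded to whole numbers, since 12.5% of values had decimals. Near-identical copies of a gene can share such estimated reads. Which libraries were extracted with TRIzol and which with RNeasy is not given in the sources used here.

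Of the table's genes, 14026 passed edgeR's filterByExpr at a count minimum of 10. Library sizes were TMM-scaled, and quasi-likelihood models (edgeR 4.0.16 in R 4.3.3) were fitted to 4 lines, or to 3 groups where the clones were pooled. Benjamini-Hochberg adjustment ran over all tested genes, and calls needed both an adjusted p under 0.01 and a log2 fold change over 0.5 in size. The SE is the log2 fold change over the square root of F. The test was tried on simulated data. DESeq2 1.42.0, other scalings, filters, thresholds and groupings, chromosome medians, a replicate block and the omission of each library were alternatives. Same-numbered libraries of TM6 and PKO-6 deviated together (r of 0.250, 0.250 and 0.209 across genes), and over all 18 pairs r was -0.385 to 0.250. Replicate numbers were taken as names only in every main fit, and the block was used only as an alternative. Replicates of each line differed by more than sampling noise.

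The members and lists were chosen with earlier results of these data known. From each list up to 4 genes with the largest called change against TM6 and a mean of at least 100 normalized counts over 12 libraries could be named, with every CHOP-dependent gene, the 10 members, *Pnpt1* and the 3 genes most like each of *Atf4*, *Ddit3* and *Trib3*. *Ppp1r15b*, *Hspd1*, *Hspe1* and others marked so in the text were added after their values were seen. *Ero1l* is the table's symbol for *Ero1a*.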

Additional observations from a re-analysis of the deposited data

Results flagged for a closer look

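Changes against TM6 that differed between derived lines by edgeR's direct test were singled out. PKO-1 and PKO-6 differed in all 10 genes, with log2 differences of PKO-1 against PKO-6 of -1.09 for *Atf4*, -1.70 for *Atf3*, -0.80 for *Atf5*, -2.04 for *Ddit3* and -1.27 for *Cebpb*. Those of the feedback and target genes were -1.95 for *Trib3*, -0.99 for *Ddit4*, -1.88 for *Chac1*, -1.62 for *Ppp1r15a* and -1.02 for *Nupr1*. PKO-1 and rho0 differed in 9 genes, with log2 differences of PKO-1 against rho0 of -0.93 for *Atf4*, -2.21 for *Atf3*, -2.05 for *Ddit3*, -1.17 for *Cebpb* and -2.25 for *Trib3*. The others were -0.59 for *Ddit4*, -1.27 for *Chac1*, -1.84 for *Ppp1r15a* and -1.32 for *Nupr1*. PKO-6 and rho0 differed in *Atf3* (-0.51) and *Chac1* (0.61).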

How the results depend on the processing

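Over 80 results (10 genes in 8 comparisons) and 1770 alternative values, 1684 kept direction and side of the threshold. The counts of genes called in PKO-1 against PKO-6 (8 to 10), PKO-1 against rho0 (7 to 9) and PKO-6 against TM6 (8 to 9) stayed within 1.5 times. The count in rho0 against TM6 was 4 with the clones pooled in the fit and 10 without any 1 library. The count in PKO-1 against TM6 was 1 when a log2 size over 1 was needed. In PKO-6 against rho0 it was 1 with only these lines fitted, 0 when a log2 size over 1 was needed by edgeR (8 genes had an unadjusted p under 0.05), and 1 to 4 without any 1 library. With pooled clones, the count against TM6 was 8 and that against rho0 6 when the mean of both clones was taken from the fit of 4 lines, and the count against TM6 was 1 to 5 without any 1 library. With a replicate block, the pooled count against TM6 was 2, where *Chac1* and *Ppp1r15a* were not called, and the block changed no other count.

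Directions that reversed belonged to differences never called. In PKO-6 against rho0, *Atf4* was -0.16 with chromosome medians removed, *Ddit3* was 0.00149 with only these lines fitted. Without any 1 library, *Ddit3* was -0.10 to 0.0427 there (above 0 without rho0 replicate 1 or PKO-6 replicate 2 or 3) and *Cebpb* -0.00159 to 0.23 (below 0 without PKO-6 replicate 2). With pooled clones and without any 1 library, *Nupr1* against TM6 was -0.18 to 0.0556, and against rho0 *Ddit4* was -0.14 to 0.10 and *Chac1* -0.26 to 0.12. Each of these 3 was above 0 without a PKO-1 library, and *Ddit4* also without rho0 replicate 1. The cause of these moves was not tested beyond the fewer libraries in each fit. The 10 genes had at least 397 normalized counts in each library. Each derived line was 1 clone.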

Other observations

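Mitochondrial chaperones and proteases, which a response to mitochondrial protein stress would include, were called upwards where called. Of 11 tested, 5 were called higher in rho0, 4 in PKO-1 and 4 in PKO-6, and the others were not called, where 20.7%, 16.4% and 21.9% of all tested genes were called higher. *Lonp1*, a protease of the mitochondrial matrix, had 8566 normalized counts in TM6, 35502 in rho0, 12490 in PKO-1 and 27506 in PKO-6. *Hspa9*, the matrix chaperone mortalin, rose by 1.60 on the log2 scale in rho0 (SE 0.07), 0.70 in PKO-1 (SE 0.07) and 1.30 in PKO-6 (SE 0.07). *Trap1* and *Dnaja3*, further matrix chaperones, were called higher in all 3 lines, by 1.04 and 1.14 in rho0, 0.69 and 0.68 in PKO-1, and 0.52 and 0.81 in PKO-6. The chaperonin genes *Hspd1* (0.28, 0.37 and 0.03 in rho0, PKO-1 and PKO-6) and *Hspe1* (-0.21, 0.26 and 0.01), singled out after their values were seen, were called in none of these lines.

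Among the immediate early genes, *Fosb*, *Klf2*, *Nr4a1* and *Ier3*, the last named after its values were seen, were called higher in all 3 lines against TM6. In rho0, PKO-1 and PKO-6, *Nr4a1* rose by 0.71, 1.66 and 2.34 on the log2 scale, and *Ier3* by 0.79, 0.87 and 1.79. *Fosb* rose by 1.61 in rho0, 2.50 in PKO-1 and 2.15 in PKO-6, and *Klf2* by 1.86, 1.23 and 1.43. Of 13 tested, 4 were called lower in rho0, 2 in PKO-1 and 2 in PKO-6, beside 21.4%, 17.9% and 19.4% of all tested genes. Those in PKO-1 were *Egr2* (-1.04) and *Klf6* (-0.53), and those in PKO-6 *Egr3* (-2.20) and *Zfp36* (-0.70), also named after their values were seen.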
